A study of Mus musculus with 43 samples.

Results

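The circadian clock genes described here are 10 genes picked by symbol: Nr1d1, Nr1d2, Per1, Per2, Cry1, Dbp, Tef, Arntl, Clock and Bhlhe40. All 10 were found in both tables of this study, among 13845 genes in the table of the processing experiment and 13817 genes in that of the input series. They were listed after Nr1d1 had been seen to differ among the processing conditions, so the values of the 10 genes in that experiment are given as a description. The calls that the fit of all genes made for them are printed beside the share of all genes called, and nothing is supported with them.

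PD798 is a cell line from 1 pancreatic ductal tumor of a KPCY mouse, in which Pdx1-Cre acts on conditional alleles that include 1 floxed allele of p53 and a YFP reporter at Rosa26. All libraries thus share this genotype, and the cells had been grown in DMEM with 10% FBS for 48 to 72 h. In the processing experiment 3 libraries were made for each of 4 conditions. Pre-FACS cells were set aside before any sorting, Mock cells stood on the bench in staining buffer for as long as the others were handled, and the remaining cells were from a sample exposed to magnetic particles and red cell lysis buffer, which either passed the pre-enrichment device before the BD Influx sorter (Pre-enriched) or was run on that sorter with no pre-enrichment step (FACS-only). In the input series PD798 cells were added to blood of healthy mice, pre-enriched and sorted as 11 single cells, 12 pools of 10 cells and 6 pools of 100 cells, and 2 libraries of bulk RNA served as the control. The labels mention blood for every library and give the bulk RNA the same sort, whereas the methods describe neither blood in the processing conditions nor a sort of the bulk RNA. Expression is given as TPM, the abundance of transcripts scaled to a fixed total per library, which is corrected for gene length and so allows levels of different genes to be set side by side. TPM keeps no record of depth, so the number of reads behind each value is unknown. No separate cultures are named, so every error and p-value here measures only the spread between libraries, which may be technical. The time of day at which cells were collected is not given in the sources used here.

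The clock of mammalian cells is a feedback loop of transcription. CLOCK and BMAL1, the product of Arntl, bind E-box sequences and switch on the Per and Cry genes, whose proteins return to inhibit them, while the receptors encoded by Nr1d1 and Nr1d2 (REV-ERB alpha and beta) repress Arntl through ROR elements. Dbp and Tef encode related transcription factors that carry the rhythm to output genes, and Bhlhe40 encodes DEC1, a repressor that competes at E-boxes. The loop runs in most tissues, the pancreas included, and in cultured cells, where single cells drift apart in phase unless a common signal aligns them.

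The ductal and epithelial markers Krt18, Krt19, Krt7, Epcam, Cdh1 and Cldn7 together reached 17284 to 19191 TPM in the processing experiment and 3226 to 26450 TPM in the input series. Of 16 blood markers, 3 were in the processing table, at a summed 0.346 to 4.45 TPM, and 5 in the input table, at 0 to 322 TPM in single cells, 0.868 to 111 TPM in 10-cell pools, 40.7 to 154 TPM in 100-cell pools and 46.5 and 62.2 TPM in bulk RNA. Their part in any result was not tested. A set of 7 libraries of the input series stood apart. Single cells 6 and 9, 10-cell pools 5 and 12 and 100-cell pools 1 to 3 correlated with each other across 13817 genes at r = 0.973 to 0.996 on the log2(TPM + 1) scale, and single cell 6 with 10-cell pool 5 at 0.996. The other 9 single cells correlated with each other at 0.560 to 0.755, the other 10 pools of 10 cells at 0.882 to 0.956, and the 7 libraries with 100-cell pools 4 to 6 at 0.893 to 0.934. With bulk RNA the 7 libraries correlated at 0.904 to 0.953. The other 10 pools of 10 cells did so at 0.814 to 0.903, and 100-cell pools 4 to 6 at 0.800 to 0.818. Single cells 6 and 9 held 11438 and 11223 genes at 1 TPM or more, against 3919 to 8598 in the other 9. Counts of listed genes called and detection in single cells are given with and without these libraries, as are some differences between the pool sizes. Most other results on pools include them.

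Promoters from RefSeq (GRCm38, 250 bases before to 50 after each start) were found for 8 of the 10 genes, 13 promoters in all, and none was listed for Per2 and Bhlhe40. They were searched on both strands for the E-box CACGTG, the E-prime box CACGTT and the ROR element cores TAGGTCA and TGGGTCA. The E-box was in 4 of the 13 promoters: 1 of the 2 of Per1, that of Cry1 and both of Tef. It was in 7.15% of all 32851 promoters in the table. The E-prime box was in the promoters of Nr1d1 and Cry1 and in 4.68% of all promoters, and an ROR core was in 1 promoter of Arntl and in 6.45% of all. No 2 of these matches overlapped. Shown here are the upstream stretches of Nr1d1, of Per1 and of Cry1, which carries both kinds of box. They were picked with their levels known, and no relation of the boxes to levels was tested. Only bases outside annotated exons are printed, 5′ to 3′ on the strand of the gene, with the matches in capitals. For Per1 promoter 1 is shown, and its promoter 2 had no match of any kind searched.
Nr1d1 (chr11:98775378-98775627, minus strand): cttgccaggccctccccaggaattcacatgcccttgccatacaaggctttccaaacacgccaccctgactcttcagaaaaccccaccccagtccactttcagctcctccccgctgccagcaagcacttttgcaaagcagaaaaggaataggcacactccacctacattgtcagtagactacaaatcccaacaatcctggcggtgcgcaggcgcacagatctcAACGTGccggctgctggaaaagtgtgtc
Per1 (chr11:69098699-69098947, plus strand): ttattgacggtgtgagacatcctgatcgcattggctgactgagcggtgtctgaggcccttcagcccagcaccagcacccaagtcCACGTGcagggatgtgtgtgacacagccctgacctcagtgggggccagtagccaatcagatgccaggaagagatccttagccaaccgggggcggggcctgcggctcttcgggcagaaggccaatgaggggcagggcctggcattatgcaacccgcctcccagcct
Cry1 (chr10:85185065-85185304, minus strand): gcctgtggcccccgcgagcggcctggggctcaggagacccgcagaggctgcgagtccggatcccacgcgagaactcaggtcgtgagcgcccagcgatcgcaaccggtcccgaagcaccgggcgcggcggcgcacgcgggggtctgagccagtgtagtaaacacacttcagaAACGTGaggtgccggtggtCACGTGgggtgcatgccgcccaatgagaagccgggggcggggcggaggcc
The box of Nr1d1 begins at position -28 from its start, that of Per1 at -166, and those of Cry1 at -79 and -60. These are matches of letters and were not tested for binding.

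Among the 4 processing conditions, Nr1d1 was lowest before sorting and highest in cells that had been sorted without pre-enrichment. Nr1d1 (ENSMUSG00000020889) lies on the minus strand of chromosome 11 at 98767932 to 98775333 of mm10 and encodes the repressor REV-ERB alpha. It was at 27.8, 29.0 and 27.2 TPM in Pre-FACS libraries 1 to 3. In Pre-enriched libraries it was at 31.2, 33.5 and 35.8 TPM, and in Mock libraries at 38.8, 33.8 and 39.8 TPM. In FACS-only libraries it was at 40.4, 46.5 and 48.3 TPM. The 3 FACS-only values thus lay above all 9 others, and the 3 Pre-FACS values below all 9 others, while Mock and Pre-enriched libraries overlapped. RNA of many cells does not tell a change in all cells from one in a share of them. On the log2(TPM + 1) scale FACS-only libraries were 0.66 above Pre-FACS libraries (SE 0.0944), a 1.59-fold difference. Mock libraries were 0.40 and Pre-enriched libraries 0.25 above Pre-FACS libraries, each with the same SE. The difference between Pre-enriched and FACS-only libraries was -0.42.

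**Figure D1:**
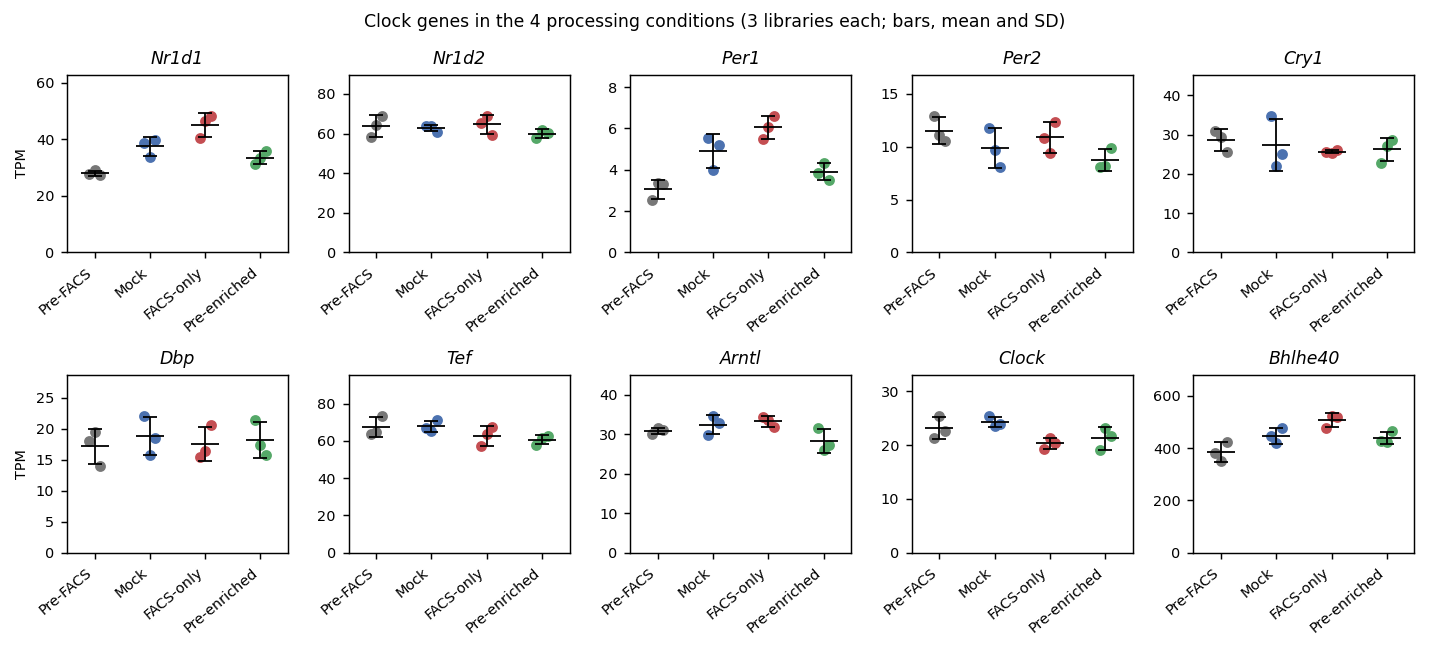
TPM of the 10 clock genes in the 12 processing libraries, with 3 points per condition (replicates 1 to 3 from left to right) and bars for the mean and SD; each vertical axis starts at 0. Nr1d1 ranges from 27.2 to 48.3 TPM, Per1 from 2.54 to 6.62 TPM and Bhlhe40 from 349 to 523 TPM, each lowest in Pre-FACS and highest in FACS-only libraries. All conditions overlap for Nr1d2, Cry1 and Dbp, while some pairs of conditions do not overlap for Per2, Tef, Arntl and Clock.

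The neighbouring gene Thra runs toward Nr1d1 on the opposite strand, and 263 exonic bases are shared by both. The library kit does not mark strand, so reads from these bases cannot be assigned to 1 of the genes. Thra had means of 15.9 ± 0.579 TPM in FACS-only and 15.0 ± 0.783 TPM in Pre-FACS libraries (SD, n = 3 each), and its highest mean was that of Mock libraries, at 16.6 ± 0.885 TPM. In Pre-enriched libraries its mean was 15.3 ± 0.981 TPM. The order of its means was thus that of Nr1d1, except that Mock and FACS-only libraries changed places. The part of the shared bases in the level of either gene was not tested.

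Nr1d2, which encodes REV-ERB beta and lies on chromosome 14 at 18204054 to 18239127, did not follow its paralog. It ranged from 57.5 to 69.1 TPM over the 12 libraries, and its highest condition mean was 1.08 times its lowest. With 63.9 ± 5.37 TPM in Pre-FACS and 64.6 ± 4.79 TPM in FACS-only libraries (SD, n = 3 each), these conditions overlapped throughout.

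Per1 and Per2 encode PERIOD proteins, the inhibitory arm of the loop, and Per1 had the pattern of Nr1d1 at a much lower level. Per1 (chromosome 11, 69095217 to 69109960) was at 2.54, 3.34 and 3.32 TPM in Pre-FACS libraries. It was at 3.85, 4.33 and 3.52 TPM in Pre-enriched libraries and at 5.53, 3.98 and 5.20 TPM in Mock libraries. In FACS-only libraries it was at 5.50, 6.07 and 6.62 TPM. Every library of the other conditions was above every Pre-FACS library, and FACS-only and Mock libraries overlapped. FACS-only libraries were 0.80 above Pre-FACS libraries on the log2(TPM + 1) scale (SE 0.171), which understates the change of a gene this low. The ratio of the mean TPM of these conditions was 1.98. Per2 (chromosome 1, 91415982 to 91459324) went another way, with its highest mean in Pre-FACS libraries, 11.5 ± 1.25 TPM, and its lowest, 8.73 ± 1.03 TPM (SD, n = 3 each), after pre-enrichment. Over all 12 libraries it ranged from 8.09 to 13.0 TPM. Cry1 (chromosome 10, 85131700 to 85185064), which encodes the partner of the PERIOD proteins, ranged from 22.1 to 34.8 TPM, both of these in Mock libraries, and its condition means differed by at most 1.12-fold.

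Arntl and Clock form the activating arm of the loop. For Arntl (chromosome 7, 113207465 to 113314126) the lowest mean was 28.2 ± 2.99 TPM, among Pre-enriched libraries, and the highest 33.2 ± 1.28 TPM, among FACS-only libraries (SD, n = 3 each). Clock (chromosome 5, 76209868 to 76304792) was at 20.3 ± 0.959 TPM in FACS-only and 24.3 ± 1.01 TPM in Mock libraries, and these did not overlap, since the highest FACS-only library was at 21.3 and the lowest Mock library at 23.5 TPM. The output genes Dbp (chromosome 7, 45705088 to 45710203) and Tef (chromosome 15, 81802421 to 81826863) ranged from 13.9 to 22.0 and from 57.1 to 73.4 TPM. Their condition means differed by at most 1.10-fold and 1.12-fold. Dbp shares 539 exonic bases with Sphk2 on the opposite strand, so its level is uncertain for the reason given for Thra, and smaller overlaps with antisense genes exist for Tef (193 bases), Arntl (33 bases) and Bhlhe40 (118 bases).

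Bhlhe40 (chromosome 6, 108660629 to 108666925), the repressor DEC1, was the most abundant of the 10 genes in each of the 12 libraries. It was at 381, 349 and 423 TPM in Pre-FACS libraries and at 427, 424 and 465 TPM in Pre-enriched libraries. Mock libraries were at 447, 418 and 478 TPM, and FACS-only libraries at 475, 523 and 519 TPM. All FACS-only values were above all Pre-FACS values, and 1 Mock library lay within the range of the FACS-only libraries. The difference between FACS-only and Pre-FACS libraries was 0.40 on the log2(TPM + 1) scale (SE 0.0703).

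**Figure D2:**
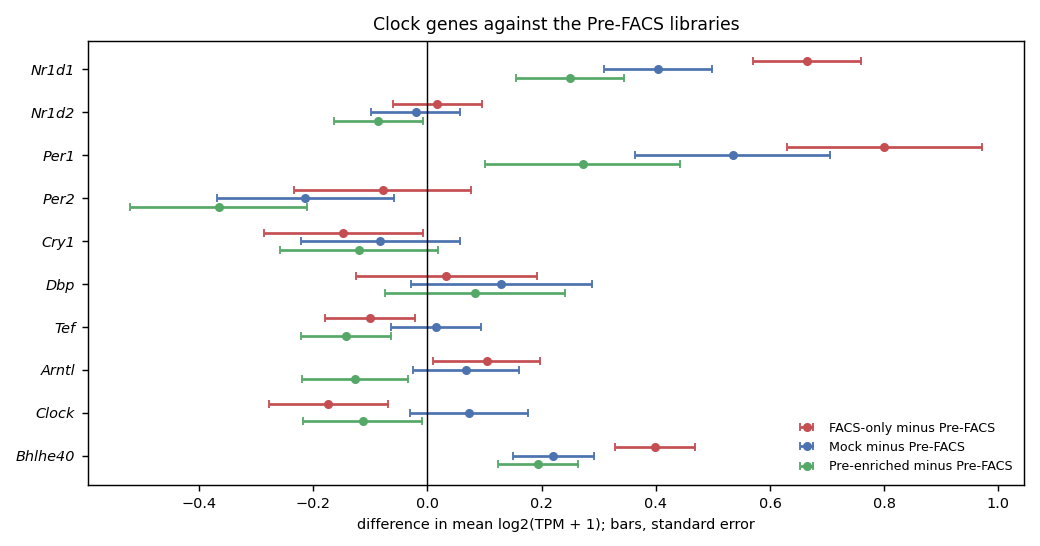
Difference of FACS-only, Mock and Pre-enriched libraries from Pre-FACS libraries for the 10 clock genes, in mean log2(TPM + 1), with bars for the standard error of the limma fit. Nr1d1, Per1, Dbp and Bhlhe40 lie to the right of 0 in all 3 comparisons, with Nr1d1, Per1 and Bhlhe40 at 0.66, 0.80 and 0.40 for FACS-only libraries, while Per2 and Cry1 lie to the left of 0 in all 3.

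In the limma fit of all 12 libraries, 1 of the 10 genes (Nr1d1) was past an adjusted p of 0.05 among the 4 conditions, as were 0.107% of the 12159 genes tested. Between FACS-only and Pre-FACS libraries Nr1d1 and Bhlhe40 were past it, both higher in FACS-only libraries, where 0.123% of all genes were called and 0.0987% were called higher. Since the list began with the call of Nr1d1, nothing is read from these counts. The call of Nr1d1 among the 4 conditions was kept without Mock replicate 2 or FACS-only replicate 1 and lost without any other single library, and it was also lost without the filter on low values and without limma's trend. Where it was lost, 1 to 7 of all genes were called, against 13 in the main fit. The call between FACS-only and Pre-FACS libraries was lost without FACS-only replicate 2 or 3 or without the trend, and for Bhlhe40 also without Mock replicate 1, Pre-FACS replicate 1 or 2, or Pre-enriched replicate 1 or 2, without the filter on low values, and with quantile normalization. Where either call was lost, 0 to 14 of all genes were called for this pair, against 15 in the main fit. No member was called in the other 5 pairs of conditions, where 0.0493% of all genes were called for Pre-enriched against Pre-FACS, 0.00822% for Mock against Pre-FACS and 0% for the rest. At an unadjusted p under 0.05 limma had 3 of the 10 members for Mock against Pre-FACS, beside 4.53% of all genes, and 3 for Pre-enriched against Pre-FACS, beside 9.18%. It had 4 members for Pre-enriched against FACS-only (6.75% of all genes), 3 for FACS-only against Mock (5.63%) and 0 for Pre-enriched against Mock (7.77%). The order of means from Pre-FACS through Pre-enriched and Mock to FACS-only was found in 3 of the 10 genes, Nr1d1, Per1 and Bhlhe40, and in 4.01% of all genes. Every FACS-only library exceeded every Pre-FACS library in these 3 and in Arntl, and in 5.81% of all genes. The median difference between FACS-only and Pre-FACS libraries was 0.03 over the 10 genes and 0.00100 over all genes.

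Across the 12 libraries, which fall into the 4 conditions, Per1 ranked 3 of 12158 genes by its correlation with Nr1d1 on the log2(TPM + 1) scale (r = 0.934). Only Tnfaip3, which encodes an inhibitor of NF-kB signalling (r = 0.937), and Hspa5, which encodes a chaperone of the endoplasmic reticulum (r = 0.936), ranked above it. Plk2, a polo-like kinase (r = 0.933), and Klf10, a zinc finger transcription factor (r = 0.933), came next. Tnfaip3 had a mean of 159 TPM in Pre-FACS, 165 in Pre-enriched, 197 in Mock and 232 TPM in FACS-only libraries, the same order as Nr1d1. Bhlhe40 ranked 13 (r = 0.886). The other listed clock genes were spread through the ranking, from Arntl (r = 0.28) to Clock (r = -0.21), and Nr1d2 had an r of 0.09. These correlations describe libraries that share the conditions which led to the choice of Nr1d1.

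A further list of 28 genes of the clock pathway was drawn up from general knowledge, of which 27 were in the table and 26 passed the filter on low values. None of the 26 had an adjusted p under 0.05 among the 4 conditions in limma, with or without the trend, and 5 had an unadjusted p under 0.05, as had 7.56% of all genes. Nfil3, the E4BP4 repressor that opposes DBP and TEF at D-boxes, had an adjusted p of 0.594 in limma, with 74.0 to 75.8 TPM in FACS-only and 48.3 to 65.1 TPM in Pre-FACS libraries. Ciart, which encodes the repressor CHRONO (adjusted p = 0.633 in limma), was at 53.2 to 56.4 TPM in FACS-only and 41.3 to 47.9 TPM in Pre-FACS libraries. Every FACS-only library exceeded every Pre-FACS library in 4 of the 26 genes, among them Nfil3, Ciart and Ccrn4l (nocturnin), against 5.81% of all genes. The median difference of the 26 genes between these conditions was 0.05 on the log2(TPM + 1) scale.

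The order of the levels differed between the bulk material of the 2 experiments. The tables were normalized separately and the material was prepared differently, so the levels are set side by side with no test, and the causes cannot be told apart. Bhlhe40 was at 91.9 and 93.8 TPM in the 2 bulk RNA libraries of the input series, against 349 to 523 TPM in the processing libraries. In terms of rank among the 12889 genes of both tables, this was percentile 81.2 to 81.6 against 96.4 to 98.1. Dbp was at 4.12 and 2.94 TPM, against 13.9 to 22.0 TPM, and Tef at 25.4 and 24.6 TPM, against 57.1 to 73.4 TPM. Both output genes were thus lower in the bulk RNA of the input series, as was Nr1d1 at 20.6 and 22.2 TPM. Per1 was the reverse, at 13.2 and 14.0 TPM against 2.54 to 6.62 TPM. Cry1 (41.5 and 43.5 TPM) and Arntl (39.6 and 45.9 TPM) were also above their ranges in the processing libraries. Per2 (9.10 and 9.29 TPM) and Clock (23.1 and 22.5 TPM) lay within those ranges, and Nr1d2 (53.1 and 52.0 TPM) just below its range. In the bulk RNA of the input series the order from high to low was Bhlhe40, Nr1d2, Arntl and Cry1, Tef, Clock, Nr1d1, Per1, Per2 and Dbp, and of these neighbours Arntl and Cry1 overlapped. In the processing libraries the order of the medians was Bhlhe40, Tef, Nr1d2, Nr1d1, Arntl, Cry1, Clock, Dbp, Per2 and Per1. There the ranges of neighbours overlapped from Tef to Nr1d2 and from Nr1d1 through Arntl, Cry1 and Clock to Dbp, while Bhlhe40, Per2 and Per1 each stood clear of the next gene.

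In single cells the clock genes were detected in less than all cells, and unevenly. Of the 110 values of the 10 genes in 11 single cells, 50 (45.5%) were at 1 TPM or more, against 54.9% of the values of the 12325 genes that reached 1 TPM in at least 3 libraries of the series. Without single cells 6 and 9, which held all 10 genes at 1 TPM or more, it was 30 of 90 values (33.3%), against 46.7%. In the 9 cells Nr1d2, Arntl and Bhlhe40 were at 1 TPM or more in 5 cells each, Nr1d1 in 4, Cry1 in 3, and Per1, Per2 and Clock in 2 each. Dbp and Tef were so in 1 of the 9, single cell 1, and were listed at 0 in the other 8. Nr1d1 was listed at 0 in 5 of 11 cells, had a median of 4.42 TPM over the 11 cells and of 0 TPM over the 9, and reached 73.6 TPM in single cell 10, above both bulk RNA libraries. Nr1d2 and Arntl reached 78.5 and 73.9 TPM in single cell 2, in which Bhlhe40 was listed at 0. Bhlhe40 had a median of 28.7 TPM over the 11 cells and of 24.8 TPM over the 9, and reached 165 TPM in single cell 1.

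Detection of the 10 genes moved with the number of genes detected in a cell. Single cells 8 and 11 listed all 10 genes at 0 and were the cells with the fewest genes at 1 TPM or more, 3919 and 4106. Single cell 1, with 8598 genes, held 9 of the 10 at 1 TPM or more, more than any other cell outside the pair described above. Between them, single cells 2, 3, 4, 5, 7 and 10, with 4995 to 6744 genes, held 2 to 5 of the 10. A value of 0 is therefore a listing in these files and was not read as absence, and since depth is unknown no limit of detection can be given. The part of depth in these differences between cells was not tested.

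**Figure D3:**
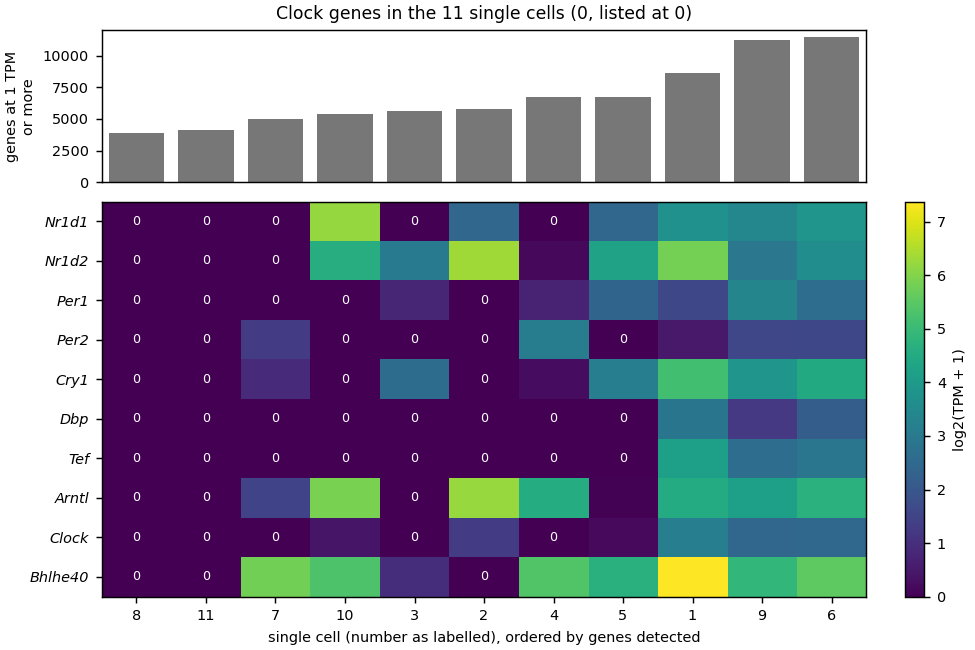
The upper panel gives the number of genes at 1 TPM or more in each of the 11 single cells, ordered by that number, and the lower panel gives log2(TPM + 1) of the 10 clock genes in the same order, with 0 written where a gene is listed at 0. Single cells 8 and 11, with 3919 and 4106 genes, list all 10 genes at 0, and single cells 9 and 6, with 11223 and 11438 genes, have values for all 10.

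Pools of 10 cells against bulk RNA were compared by limma on the 20 libraries that are not single cells, which asks whether pooled cells gave the levels of bulk RNA. The pools were lysed sorted cells and the bulk RNA was extracted with a kit, so input amount and preparation cannot be told apart in this comparison. All 10 genes had a lower mean in the 10-cell pools, as had 75.2% of the 12231 genes tested, and 5 of the 10 (Nr1d2, Per1, Per2, Tef and Clock) were called lower, as were 31.9% of all genes (39.5% in either direction). Tef was at 0 TPM in its lowest pool, 2.14 TPM in the median pool and 9.22 TPM in its highest pool, all below the 25.4 and 24.6 TPM of bulk RNA. The difference was -3.01 on the log2(TPM + 1) scale (95% interval -4.64 to -1.38, limma adjusted p = 0.00538). Clock ranged from 1.94 to 9.55 TPM in the 12 pools with a median of 4.08 TPM, again below bulk RNA without overlap, and differed by -2.18 (-3.09 to -1.27, limma adjusted p = 0.000911). Per1 and Per2 had medians of 2.82 and 1.51 TPM and no pool above 7.05 and 5.02 TPM, below the bulk values of both genes. They differed by -1.95 (limma adjusted p = 0.00849) and -2.25 (limma adjusted p = 0.00353). Nr1d2 ranged from 0.371 to 59.6 TPM with a median of 12.1 TPM, so that its highest pool exceeded bulk RNA, and differed by -2.08 (limma adjusted p = 0.0303).

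The other 5 genes were not called. Nr1d1 ranged from 0.717 to 27.5 TPM with a median of 8.65 TPM, overlapped bulk RNA and differed by -1.26 (95% interval -3.09 to 0.58, limma adjusted p = 0.261). Arntl had a median of 21.1 TPM (7.65 to 29.5) and Bhlhe40 of 42.1 TPM (5.28 to 75.7), both below bulk RNA in each pool, with differences of -1.24 each (limma adjusted p = 0.0754 and 0.113). Cry1 had a median of 12.9 TPM (0 to 26.7) and differed by -2.08 (limma adjusted p = 0.0844). Dbp, listed at 0 in 5 of 12 pools, differed by -0.996 (95% interval -2.64 to 0.65, limma adjusted p = 0.322). In 7 of the 10 genes every 10-cell pool was below both bulk RNA libraries, as in 40.6% of all genes. The median difference was -2.01 over the 10 genes and -0.86 over all genes, so that relative to all genes Tef was at -2.15, Clock at -1.32 and Nr1d1 at -0.39. After quantile normalization, which moved the median of all genes to 0.13, only Tef was still called, where 32.2% of all genes were, and Nr1d1 and Dbp were above bulk RNA by 0.03 and 0.37. With either bulk RNA library left out only Clock was called, where 10.5% of all genes were called without bulk RNA 1 and 11.9% without bulk RNA 2. Without 10-cell pools 5 and 12, 5 of the 10 were called, where 43.6% of all genes were, and without 100-cell pools 1 to 3 as well, 7, where 49.8% were. These shares are of calls in either direction.

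**Figure D4:**
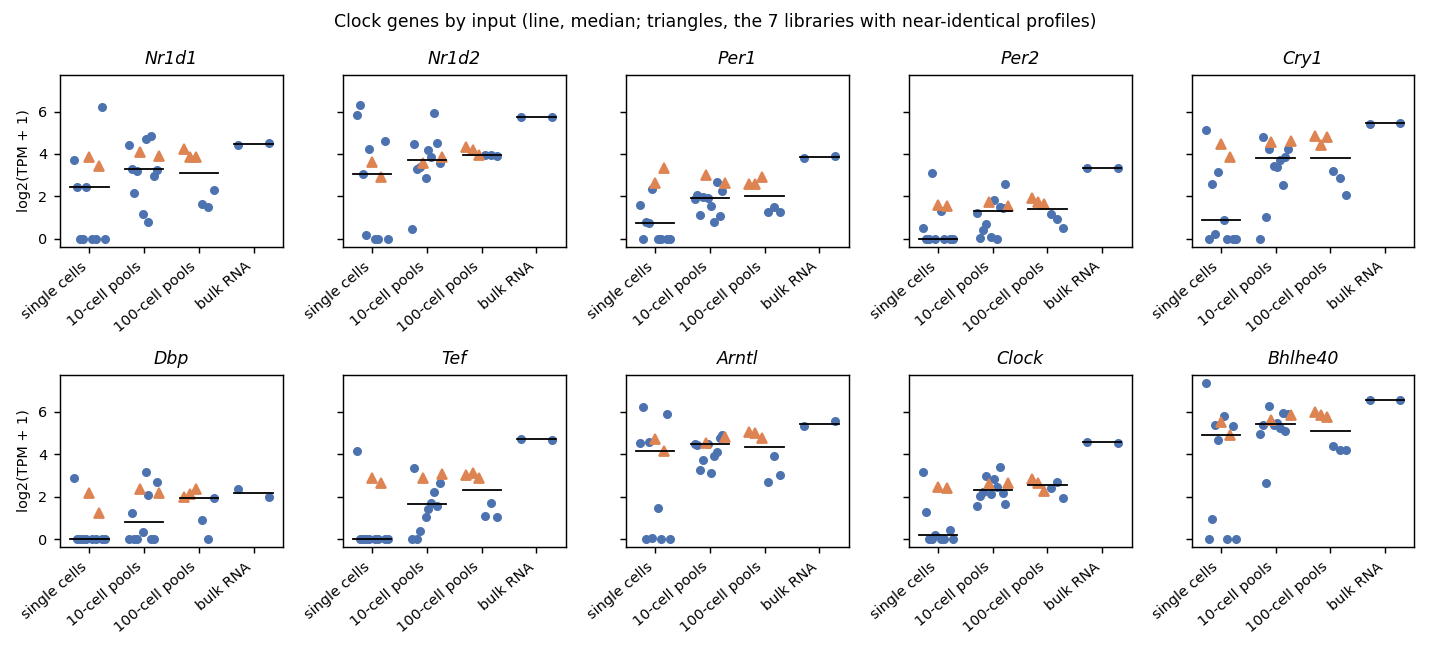
log2(TPM + 1) of the 10 clock genes in single cells (n = 11), 10-cell pools (n = 12), 100-cell pools (n = 6) and bulk RNA (n = 2), with a line at the median of each input. Triangles are the 7 libraries whose whole profiles are nearly alike; in the 100-cell pools they lie above the 3 other pools for 8 of the 10 genes, all but Nr1d2 and Clock.

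For the pools of 100 cells the levels depended on which pools were looked at. Nr1d1 lay between 13.5 and 17.9 TPM in 100-cell pools 1 to 3 but between 1.82 and 3.97 TPM in pools 4 to 6, a ratio of means of 5.68. Tef was at 6.48 to 7.61 and 1.05 to 2.26 TPM, Cry1 at 20.8 to 27.9 and 3.22 to 8.32 TPM, and Bhlhe40 at 53.3 to 61.6 and 17.4 to 20.1 TPM in these sets. Nr1d2, at 14.7 to 19.3 and 13.8 to 14.7 TPM, and Clock, at 3.81 to 6.21 and 2.80 to 5.50 TPM, overlapped between the sets. In 8 of the 10 genes every one of pools 1 to 3 was above every one of pools 4 to 6, as in 59.1% of all genes. What distinguishes the sets is not given in the sources used here.

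Against bulk RNA, all 10 genes again had a lower mean in the 100-cell pools, as had 73.3% of all genes, and 4 of the 10 (Per1, Per2, Tef and Clock) were called lower, as were 24.9% of all genes (32.3% in either direction). Clock differed by -2.10 (95% interval -3.07 to -1.13, limma adjusted p = 0.00322), Tef by -2.56 (-4.30 to -0.82, adjusted p = 0.0261), Per2 by -2.03 (-3.25 to -0.80, adjusted p = 0.0146) and Per1 by -1.85 (-3.06 to -0.64, adjusted p = 0.0216), all in limma. Every 100-cell pool was below both bulk RNA libraries in 9 of the 10 genes, all but Dbp, and in 52.7% of all genes. The median difference was -1.71 over the 10 genes and -0.79 over all genes. Without pools 1 to 3, 8 of the 10 were called, all but Nr1d2 and Dbp, where 56.0% of all genes were called in either direction. Without pools 4 to 6 only Clock was called, where 7.02% of all genes were. The call of Tef was also lost without 100-cell pool 4 or 6, and 1 more gene was called without 10-cell pool 1 (Nr1d2), without 10-cell pool 3 (Bhlhe40) and without 100-cell pool 1 or 2 (Arntl). No member was called without bulk RNA 1 or 2, where 2.90% and 4.01% of all genes were called, or after quantile normalization, where 29.7% were.

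**Figure D5:**
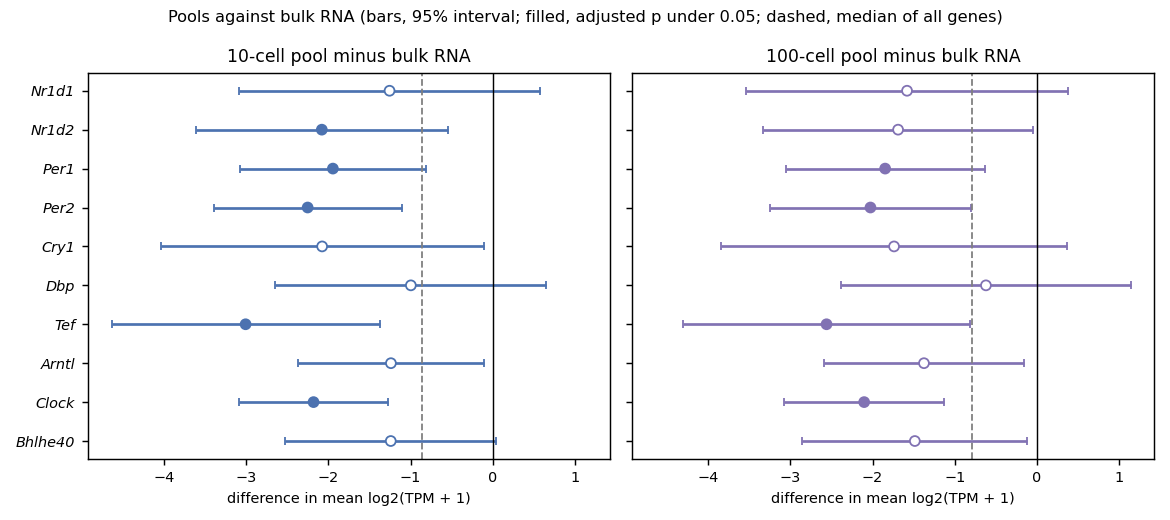
Difference of 10-cell pools (left) and 100-cell pools (right) from bulk RNA in mean log2(TPM + 1), with 95% intervals from limma; filled points have an adjusted p under 0.05 and the dashed line is the median of all genes, at -0.86 and -0.79. All 10 genes lie below 0 in both panels, and in the right panel Dbp alone lies above the dashed line.

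Between 100-cell and 10-cell pools none of the 10 genes was called by limma, with or without the trend. With the trend 0.00818% of all genes were called. None of the 10 had an unadjusted p under 0.05 in limma, beside 7.19% of all genes. The differences ran from -0.33 for Nr1d1 (95% interval -1.53 to 0.88) to 0.45 for Tef (-0.62 to 1.51), and the narrowest interval was that of Clock (-0.52 to 0.67). Lower means in the 100-cell pools were found in 3 of the 10 genes and in 36.8% of all genes. The sign followed the pools included. Without pools 4 to 6 Nr1d1 was 0.76 higher in 100-cell pools, whereas without pools 1 to 3 Per1 differed by -0.58 and Cry1 by -0.65. None of the 10 was called in either subset. Of all genes 0.033% were called without pools 4 to 6 and 17.9% without pools 1 to 3.

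Of the further 28 clock pathway genes, 27 were in the input table and 26 were tested. Against bulk RNA 12 of the 26 were called lower in the 10-cell pools, and 8 of the 26 in the 100-cell pools, beside 31.9% and 24.9% of all genes. The median difference of the 26 genes was -0.79 and -0.91, near the -0.86 and -0.79 of all genes. Cry2, the second cryptochrome, had the largest difference of the list in the 10-cell pools, at -3.24 (SE 0.682, limma adjusted p = 0.00127), and differed by -1.97 in the 100-cell pools (adjusted p = 0.0431 in limma). Npas2, which can take the place of CLOCK, differed by -1.94 (limma adjusted p = 0.00166) and -1.32 (adjusted p = 0.0322). Csnk1d, a kinase that acts on PER proteins, was called in both, at -2.27 and -2.56, as was Fbxw11, a ubiquitin ligase subunit, at -2.22 and -2.31, while Csnk1e and Btrc, a related kinase and ligase subunit, were called in neither. Per3 (-1.34 and -1.29) was also called in both. Called in the 10-cell but not in the 100-cell pools were Bhlhe41, Rora, Gsk3b, Ccrn4l, Nampt and Wee1, from -2.08 for Wee1 to -0.57 for Nampt, and in the 100-cell but not in the 10-cell pools Csnk1a1 (-1.002) and Nono (-1.39). Between the pool sizes 0 of the 26 genes were called by limma, with or without the trend, and 4 had an unadjusted p under 0.05, as had 7.19% of all genes. In all 14 genes were called against bulk RNA. This count rests on having both bulk RNA libraries. Fewer genes were called with either left out, here and over all genes, in fits with a single bulk RNA library.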

How the data were processed

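Whole transcriptome libraries of PD798 were made with SMART-Seq v4, which does not mark strand. The authors aligned reads to mm10 with STAR, counted them with featureCounts, normalized by the upper quartile and deposited TPM; the labels give STAR as 2.52, and the gene annotation and strand setting of the counting are not given in the sources used here. In the input table all 13817 genes together hold 54.2% to 99.99% of the fixed total of a library, so its TPM was also rescaled.

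Groups came from the sample labels. Columns not used numbered 0. Genes were kept that reached 1 TPM in 3 or more libraries of a fit, log2(TPM + 1) was computed, and limma (version 3.58.1, R 4.3.3, empirical Bayes with a trend) was fitted to the 12 processing libraries and to the 20 libraries of pools and bulk RNA, with Benjamini-Hochberg adjustment over all genes tested and a threshold of 0.05. Fold changes are on the log2(TPM + 1) scale, which understates those of low genes. The fits were tested on simulated data. No test crosses the tables. Coordinates are from GENCODE M21 (mm10). The rest was done in Python (3.11.15; numpy 2.4.6, pandas 2.3.3, matplotlib 3.10.9).

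All 10 listed genes are named, and of 28 further pathway genes those past the threshold and, in each experiment, the 3 of lowest p, and the 5 genes most correlated with Nr1d1; 1 pathway gene that this rule selects is counted but not reported here. The members, lists and rules were chosen with earlier results of these data known. Alternatives were a pseudocount of 0.1, no filter or a mean of 5 TPM, quantile normalization, no trend, rescaled TPM, a replicate block, subsets of libraries and leaving out each library. Leaving out 10-cell pools 5 and 12, with or without 100-cell pools 1 to 3, and single cells 6 and 9 was chosen after seeing the data.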

Additional observations from a re-analysis of the deposited data

How the results depend on the processing

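Of the listed genes called among the 4 processing conditions (1), the count was 0 without the filter and without the trend, and 0 to 1 with a library left out. Over all genes, 13 were called in the main fit and 7 of 13845 without the filter. It was 1 of 12159 without the trend, and 1 to 17 with a library left out. For pairs of these conditions (2) the count of listed genes was 1 without the filter, with quantile normalization and with only the 2 conditions compared, 0 without the trend, and 0 to 2 with a library left out. Of all genes, 15 were called between FACS-only and Pre-FACS libraries in the main fit and 10 without the filter. There it was 12 with quantile normalization, 0 without the trend, and 5 to 24 with a library left out. For 10-cell pools against bulk RNA (5) the count of listed genes was 3 at a mean of 5 TPM, 1 with quantile normalization, and 1 to 5 with a library left out. For 100-cell pools against bulk RNA (4) it was 1 with a pseudocount of 0.1, 2 at a mean of 5 TPM, 0 with quantile normalization, 1 without pools 4 to 6, 8 without pools 1 to 3, 8 also without 10-cell pools 5 and 12, and 0 to 5 with a library left out. At a mean of 5 TPM, Per1 and Per2, called in both main comparisons, did not pass the filter and were not tested. Of other pathway genes called between pools and bulk RNA (14), 9 were called with a pseudocount of 0.1, 6 with quantile normalization, and 2 to 14 with a library left out. Over all genes, the shares called in 10-cell and 100-cell pools against bulk RNA were 31.6% and 19.6% with a pseudocount of 0.1. They were 38.8% and 36.4% at a mean of 5 TPM, and 32.2% and 29.7% with quantile normalization. Detection in single cells fell from 50 to 30 values without single cells 6 and 9. Causes other than the filter on Per1 and Per2 were not tested.

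Quantile normalization turned the sign of Nr1d1 (0.033) and Dbp (0.37) in 10-cell pools against bulk RNA, of Dbp (0.37) in 100-cell pools against bulk RNA, and of Per1 (-0.21), Per2 (-0.34) and Clock (-0.062) between the pool sizes. Between the pool sizes, Nr1d1 (0.76), Arntl (0.72) and Bhlhe40 (0.55) changed sign without pools 4 to 6. Without pools 1 to 3, Per1 (-0.58), Per2 (-0.22), Cry1 (-0.65), Dbp (-0.24), Tef (-0.42) and Clock (-0.041) did so, and without 10-cell pools 5 and 12 as well, Per1 (-0.40), Per2 (-0.11), Cry1 (-0.41), Dbp (-0.016) and Tef (-0.16). With a library left out Per1 ranged from -0.0801 to 0.253 and Arntl from -0.329 to 0.138. None of these differences between the pool sizes was past the threshold. Of all genes, 0.0164% were past it with quantile normalization and 0.033% without pools 4 to 6. Without pools 1 to 3 it was 17.9% of all genes, and 14.9% without 10-cell pools 5 and 12 as well.

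Replicate numbers were not taken as pairs in the main fits, although those of the processing experiment partly went together. There libraries of the same number deviated together with a median r of 0.069 over 18 pairs, against -0.030 over 36 pairs of other numbers. An r over 0.1 was found in 2 of the 18 and 0 of the 36. For 9 of 12 processing libraries the closest library of another condition had the same number. In the input series r was over 0.1 in 1 of 10 pairs of the same number and 26 of 98 others. With the replicate number as a block, 2 listed genes were called among the 4 conditions. Of all 12159 genes tested 61 were called there, against 13 without the block. Between 10-cell pools and bulk RNA 2 listed genes were called, where 6.22% of all genes were. Between 100-cell pools and bulk RNA 0 were called, where 0% of all genes were. In this fit 0 of the other pathway genes were called between pools and bulk RNA, and Bhlhe40 differed by 0.022 between the pool sizes. TPM keeps no depth, so the precision of single values is unknown.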
